A study of Mus musculus with 24 samples.

Results

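The genes described here are 10 regulators of mitosis that work at the kinetochore and inner centromere: *Mad2l1*, *Mad1l1*, *Bub1*, *Bub1b*, *Bub3*, *Ttk* and *Cdc20* of the spindle assembly checkpoint, and *Aurkb*, *Birc5* and *Incenp* of the chromosomal passenger complex. They were taken by gene symbol from a table of 54658 genes, and all 10 were found and passed the filter on low values in every comparison. Their RNA was measured in 24 libraries from mouse embryos with and without *Cep135*, a gene that codes for a centriole protein. Mutants were *Cep135*(Δ8/Δ8) (labelled Cep135 (-/-)) and controls *Cep135*(+/+), both from crosses of heterozygous mice that carried a small constitutive deletion made in the zygote with CRISPR/Cas9. Dorsal telencephalon was taken as tissue from 3 mutants (A, B and C) and 3 controls (D, E and F) at embryonic day E11.5 and from 3 mutants (1, 2 and 6) and 3 controls (3, 4 and 5) at E14.5. Cells of the same 6 E14.5 embryos were dissociated with papain and cultured in suspension as incipient neurospheres for 12 and 24 hours, which gave another 12 libraries.

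In mitosis, a kinetochore that is not yet held by spindle microtubules carries MAD1 and MAD2, recruited with the help of the kinases TTK and BUB1. There, MAD2, BUBR1 (the product of *Bub1b*) and BUB3 join CDC20 in a complex that blocks the anaphase-promoting complex (APC/C), the ubiquitin ligase that starts anaphase. Once all chromosomes are attached, CDC20 is freed and turns the APC/C on. The passenger complex brings the kinase Aurora B to the centromere, where it destabilises faulty attachments. Most of these transcripts are known to peak in G2 and mitosis, so in the embryonic cortex they mark dividing progenitors more than postmitotic neurons.

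One promoter element shared by many genes of this kind is the CHR (cell cycle genes homology region), which is bound by the MuvB complexes that switch such genes off in resting cells and on in G2. RefSeq promoters on GRCm38, which reach from 250 bases before a start site to 50 bases after it, were at hand for 8 of the 10 genes, with 2 start sites each for *Mad1l1* and *Bub3*. *Aurkb* and *Incenp* had no entry. The CHR was searched as TTTGAA on both strands, together with its variant TTCGAA, and these letters were in the promoters of 5 genes. The 30-base windows below show the match nearest the start site, in capitals, read 5′ to 3′ on the gene's strand.
*Cdc20*, chr4:118437344-118437373, minus strand: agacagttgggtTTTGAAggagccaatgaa
*Bub3*, chr7:131560315-131560344, plus strand: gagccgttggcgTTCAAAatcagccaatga
*Ttk*, chr9:83834684-83834713, plus strand: cagcggggaaatTTCAAAcgtgtttccgga
*Bub1*, chr2:127831828-127831857, minus strand: ctgcgcggggaaTTCGAAtcgccggcggcc
*Bub1b*, chr2:118598231-118598260, plus strand: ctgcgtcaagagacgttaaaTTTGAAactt

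The match began 18 bases before the start site in *Cdc20* and 43 bases before the first of the *Bub3* start sites. It began at base 8 after the start site in *Ttk*, base 15 in *Bub1* and base 41 in *Bub1b*. In *Cdc20* and *Bub3* the window also holds CCAAT, the box bound by NF-Y, and the 5 genes with a CHR or its variant all had CCAAT or its complement ATTGG in the promoter. Of all 32851 promoters of this length, 19.2% held TTTGAA, its complement TTCAAA or TTCGAA, 37.4% held CCAAT on either strand, and 7.52% held both kinds. *Mad2l1*, *Mad1l1* and *Birc5* had neither motif in these windows. These are matches of letters and were not measured as binding sites, and their part in the changes described below was not tested.

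The libraries held 4732781 to 11645213 reads on genes. The deposited values are read counts divided by 1 size factor per library and are called normalized read counts here. *Cep135* itself had 246 to 336 normalized read counts in mutants and 293 to 375 in controls at E11.5. Reads were taken at the 3′ ends of transcripts, outside the deletion, so this level checks no genotype. One label of mutant 6's cortex gives E11.5 and others give E14.5. The summed level of 9 markers of postmitotic neurons in that library was 36279, near the other E14.5 cortices (37054 to 48467) and far from the E11.5 cortices (10044 to 14986), and it was used as E14.5. Between 19 and 3023 reads per library lay behind the value of each gene other than *Aurkb*, for which it was 2 to 143 reads. The last 300 bases of *Cdc20* matched the processed pseudogene *Gm7856*, which had 0 reads in 23 of 24 libraries and 9 in the other, and *Cdc20* overlaps *Elovl1* on the opposite strand by 53 bases. No such copy was found for the other 9 genes among annotated transcripts.

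The comparison of ages asked how the genes moved as the cortex went from mostly dividing progenitors to active neurogenesis. All 10 genes fell from E11.5 to E14.5, by 0.42 (*Mad1l1*) to 1.23 (*Bub1*) on the log2 scale of the normalized read count plus 1, with a median of -0.91 against -0.08 over all 13650 genes tested. The test was limma across the 12 cortices with genotype as a term and p-values adjusted by the Benjamini-Hochberg method over all genes. Of all genes tested, 29.3% fell past the threshold of 0.05. In 8 of the 10 genes every E14.5 cortex lay below every E11.5 cortex, a pattern that 14.9% of genes showed, and *Mad1l1* and *Bub3* were the exceptions. The 2 ages came from different litters, so age and litter cannot be told apart.

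**Figure D1:**
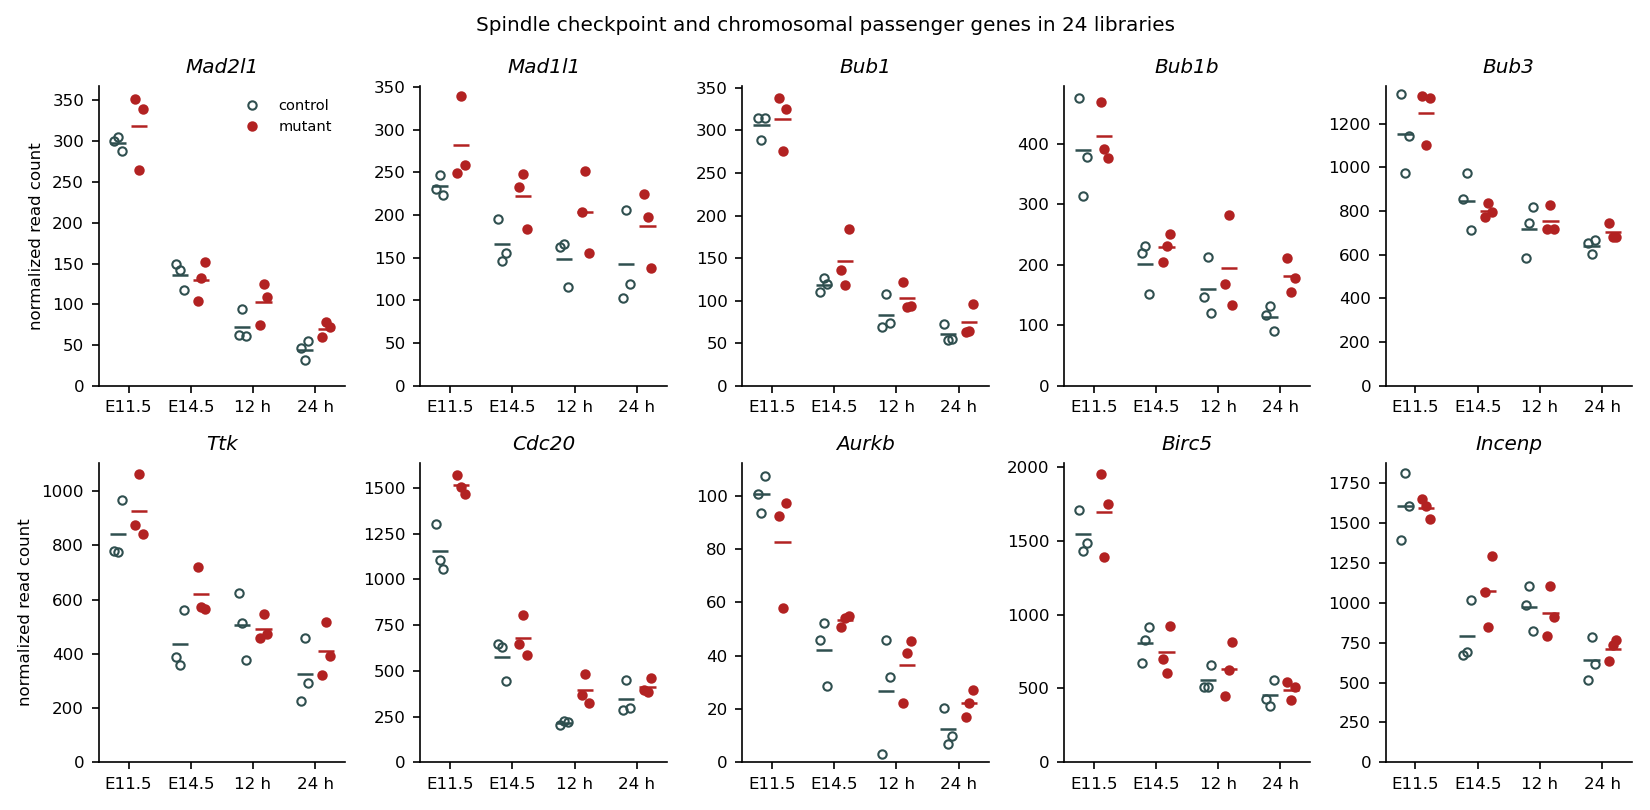
Normalized read count (linear axis from 0) of each of the 10 genes in the 24 libraries, at E11.5, at E14.5 and after 12 and 24 hours of culture. Filled red points are mutants, open dark points controls, and short lines group means of 3 libraries. The step down from E11.5 to E14.5 is seen in each panel, while mutant and control points overlap in most settings.

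Among the sensors at the kinetochore, *Ttk* (chromosome 9 of GRCm38, 83834689 to 83872389, plus strand) codes for the kinase MPS1, which starts checkpoint signaling. Its normalized read count was 877, 1064 and 842 in the E11.5 cortices of mutants A, B and C, against 779, 777 and 966 in controls D to F. The E14.5 cortices held 720.4, 572 and 567 (mutants 1, 2 and 6) and 388, 361 and 561 (controls 3 to 5). No library of the later age reached the earlier one, and the level fell by 0.77 ± 0.12 (SE) on the log2 scale (limma, adjusted p = 7.80e-05). *Bub1* (chromosome 2, 127801122 to 127831865, minus strand), the kinase that marks the centromere for shugoshin and the passenger complex, had 338, 276 and 325 in mutants and 314, 289 and 315 in controls at E11.5. At E14.5 it had 137, 118 and 185 in mutants and 111, 127 and 119 in controls, so that the later libraries held less than the earlier ones without overlap. This was the largest change among the 10 genes: *Bub1* fell by 1.23 ± 0.11 (SE) on the log2 scale (limma, adjusted p = 2.28e-07). *Mad1l1* (chromosome 5, 140008689 to 140321552, minus strand), whose product anchors MAD2 at the kinetochore, moved least. It had 249, 339 and 258 in mutants and 231, 247 and 224 in controls at E11.5, and 233, 248 and 184 and 195, 147 and 155 at E14.5. Mutants 1 and 2 at E14.5 lay within the range of the E11.5 cortices, and the gene fell by 0.42 ± 0.11 (SE) on the log2 scale (limma, adjusted p = 0.00531).

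The subunits of the inhibitory complex fell by unequal amounts. *Mad2l1* (chromosome 6, 66535390 to 66547220, plus strand), which codes for the MAD2 that is turned over at the kinetochore, had 352, 264 and 339 in mutants and 300.3, 305 and 288 in controls at E11.5. At E14.5 its counts were 104, 132 and 152 in mutants and 149, 142 and 118 in controls, all below the lowest E11.5 cortex. It fell by 1.21 ± 0.12 (SE) on the log2 scale (limma, adjusted p = 2.82e-07). *Bub1b* (chromosome 2, 118598211 to 118641591, plus strand) had 470.3, 392 and 376 in mutants and 477, 314 and 379 in controls at E11.5 and 204, 232 and 251 and 219.99, 231 and 153 at E14.5, again without overlap. Its change was -0.90 ± 0.13 (SE) on the log2 scale (limma, adjusted p = 1.82e-05). *Bub3* (chromosome 7, 131560222 to 131571895, plus strand), which also serves in interphase cells as a partner of other complexes, had 1324, 1099.8 and 1315 and 1334, 972 and 1145 at E11.5. At E14.5 it had 771, 838 and 796 in mutants and 856, 974 and 712 in controls, where control 4 passed the lowest E11.5 control by a little. The gene fell by 0.54 ± 0.10 (SE) on the log2 scale (limma, adjusted p = 0.000289), and its 95% interval of -0.75 to -0.32 lay apart from that of *Mad2l1*, -1.46 to -0.97, though the difference between genes was not tested.

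*Cdc20* (chromosome 4, 118432901 to 118437352, minus strand), both the target of the checkpoint and the activator of the APC/C, had 1569, 1506 and 1463 in E11.5 mutants and 1301, 1103 and 1056 in E11.5 controls. By E14.5 these were 646, 803 and 585 and 649, 633 and 444. The youngest control with the least still held more than any E14.5 cortex, and *Cdc20* fell by 1.09 ± 0.11 (SE) on the log2 scale (limma, adjusted p = 4.45e-07).

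The passenger complex fell as the checkpoint did. *Birc5* (chromosome 11, 117849251 to 117855743, plus strand), which codes for survivin, had 1950.05, 1389.8 and 1747 in mutants and 1709, 1433 and 1485 in controls at E11.5, and 701, 605 and 925 and 671, 827 and 918 at E14.5. It fell by 1.07 ± 0.12 (SE) on the log2 scale (limma, adjusted p = 1.79e-06). The scaffold gene *Incenp* (chromosome 19, 9872296 to 9899551, minus strand) went from 1648, 1608 and 1522 in mutants and 1392, 1813 and 1608 in controls to 1069, 850.1 and 1291 and 671, 689.6 and 1017. The nearest values of the 2 ages were 1291 in E14.5 mutant 6 and 1392 in E11.5 control D. *Incenp* fell by 0.81 ± 0.13 (SE) on the log2 scale (limma, adjusted p = 7.38e-05). *Aurkb* (chromosome 11, 69045647 to 69051664, plus strand), the kinase of the complex, had 92.2, 58 and 97.3 and 101, 93.7 and 107 at E11.5 against 50.8, 54.1 and 54.8 and 45.9, 52.3 and 28.8 at E14.5. It fell by 0.93 ± 0.19 (SE) on the log2 scale (limma, adjusted p = 0.000556), and was the one gene of the 10 whose call was lost when all 24 libraries shared 1 fit (adjusted p = 0.0695).

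Other genes of the same pathways moved the same way. Of 19 further kinetochore and checkpoint genes, 18 fell past the threshold, with a median log2 fold change of -0.80. The smallest p among them belonged to *Trip13* (-1.20), the ATPase that remodels MAD2, to *Nuf2* (-1.05) of the NDC80 complex, and to *Kntc1* (-1.15), which codes for ROD. Of 9 further centromere and passenger partner genes 8 fell, among them *Cdca8* (-1.12), which codes for borealin, *Tpx2* (-0.82), and *Aurka* (-1.19), the spindle pole kinase. Of 17 mitotic entry kinases and regulators 16 fell, led by *Cdc25a* (-0.91), *Plk1* (-1.23) and *Mybl2* (-1.24). All 17 S phase genes fell as well, with a median of -1.07. Of the 19 genes for the APC/C and its substrates, 9 fell, and the 3 with the smallest p were the substrates or inhibitors *Ccnb1* (-1.11), *Ccnb2* (-1.17) and *Fbxo5* (-1.02).

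Markers of cell types moved between the ages too. The summed level of 9 markers of postmitotic neurons was 10044 to 14986 at E11.5 and 36279 to 48467 at E14.5, and all 9 rose. That of 8 markers of apical progenitors was 14385 to 18131 and then 9449 to 11292, with 6 genes lower and 2 higher past the threshold. That of 6 markers of intermediate progenitors, which also divide, was 1489 to 2125 and then 2878 to 3257, with 3 genes higher and 1 lower. In bulk tissue, fewer dividing cells and less RNA per dividing cell cannot be told apart, and the part of these shifts in the fall of the 10 genes was not tested.

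**Figure D2:**
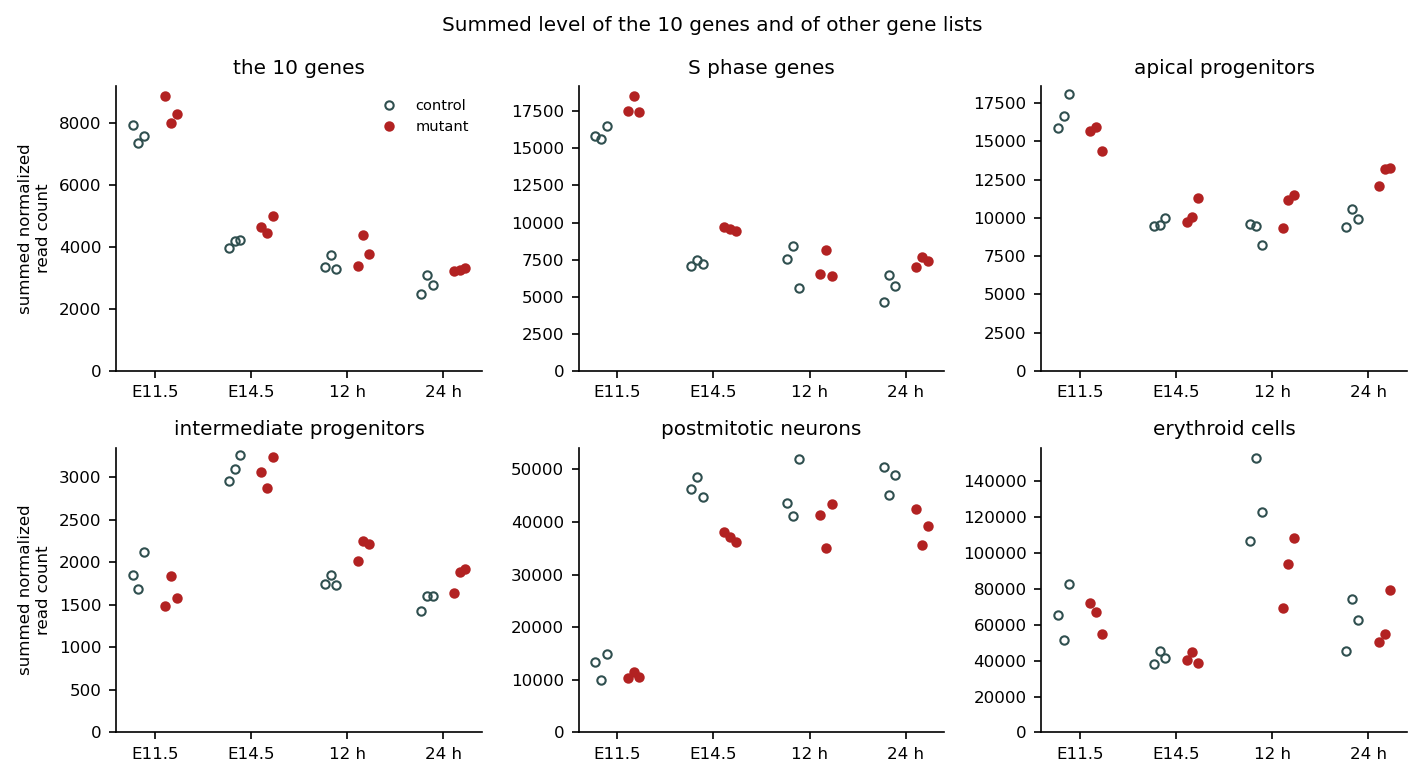
Summed normalized read count (linear axis) of the 10 genes and of 5 other gene lists in each of the 24 libraries (filled red points, mutants; open dark points, controls). The 10 genes sum to 7346 to 8870 at E11.5 and to 3956 to 4990 at E14.5, while the neuron markers sum to 10044 to 14986 and 36279 to 48467.

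Part of the group was lower in 12-hour culture than in the E14.5 cortex. In the 12-hour neurospheres 3 of the 10 genes, *Cdc20*, *Mad2l1* and *Bub1*, were lower than in the E14.5 cortices of the same embryos, where 16.1% of all genes tested fell past the threshold. The fits held genotype as a term, and the replicate numbers mark the same embryo in both groups. With the embryo as a replicate block, 15.3% of genes fell, and *Birc5* was the fourth of the 10 (adjusted p = 0.0238). *Cdc20* changed most. It had 369.5, 484 and 326 in cultures of mutants 1, 2 and 6 and 203, 228 and 223 in those of controls 3, 4 and 5, and it fell by 1.08 ± 0.15 (SE) on the log2 scale (limma, adjusted p = 6.63e-05). Only the culture of mutant 2 held more than the lowest E14.5 cortex, control 5.

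*Mad2l1* had 75.1, 125 and 108 in mutant and 62.9, 93.9 and 60.7 in control cultures and fell by 0.63 ± 0.20 (SE) on the log2 scale (limma, adjusted p = 0.0226). *Bub1* had 122, 92.6 and 94.1 and 69.2, 108 and 73.6 and fell by 0.51 ± 0.17 (SE) on the log2 scale (limma, adjusted p = 0.0325). The cultures of mutants 2 and 6 overlapped the cortex values of *Mad2l1*, and that of mutant 1 those of *Bub1*. Both calls were lost without cortex control 3, cortex control 4 or the culture of control 5, each of which left *Cdc20* alone. For *Birc5*, with 447, 623 and 817 and 508, 507 and 660.5, the log2 fold change was -0.39 ± 0.15 (SE) (limma, adjusted p = 0.0613). Among the other 6 genes, log2 fold changes were -0.89 ± 0.47 (SE) for *Aurkb*, -0.32 ± 0.19 (SE) for *Bub1b*, -0.17 ± 0.11 (SE) for *Bub3*, -0.15 ± 0.16 (SE) for *Mad1l1*, -0.06 ± 0.15 (SE) for *Ttk* and 0.06 ± 0.15 (SE) for *Incenp*. Their adjusted p ranged from 0.162 to 0.807. The interval for *Aurkb* reached from -1.88 to 0.10, since the culture of control 3 held 2 reads of this gene and the other 5 cultures 23 to 51, whereas that of *Ttk* reached from -0.39 to 0.27.

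The other lists were mixed at 12 hours. Of the 19 genes for the APC/C and its substrates, 6 fell and none rose, with the smallest p for *Pttg1* (-1.18), which codes for securin, *Anapc11* (-0.80) and *Ccnb2* (-1.63). Of 19 kinetochore and checkpoint genes, 3 fell, *Spc25* (-0.97) and *Nuf2* (-0.72) among them, and *Tpr* (0.37) rose. Of 17 mitotic entry genes, 5 fell and 2 rose (*Cdc25a*, 0.36, and *Lin9*, 0.39), of 9 centromere partners 2 fell (*Tpx2*, -0.40, and *Cenpa*, -0.61), and of 17 S phase genes 7 fell, led by *Mcm6* (-0.71), *Mcm4* (-1.0) and *Mcm2* (-0.75). Cell type markers shifted as well: 8 microglial markers summed to 464 to 1030 in the cortex and 7.37 to 53.5 in culture, and 6 endothelial markers to 847 to 996 and 24.3 to 103. The labels call the cultured cells cortical neural progenitors, and neuron markers summed to 35117 to 52061 in them, against 36279 to 48467 in the cortex. Of 8 markers of apical progenitors 6 fell, *Hes5* (-4.23) and *Nes* (-0.88) among them, and 1 rose, with sums of 9449 to 11292 in the cortex and 8214 to 11486 in culture. Of 6 markers of intermediate progenitors 3 fell, *Eomes* (-1.05) among them, with sums of 2878 to 3257 and 1729 to 2247. Erythroid markers summed to 38244 to 45355 in the cortex and to 69440 to 153106 in culture. The share of reads on *Gm42418*, an RNA gene with ribosomal sequence, was 9.78% to 15.0% in the cortex and 10.7% to 34.8% in culture. The part of these shifts in the change of the 10 genes was not tested.

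**Figure D3:**
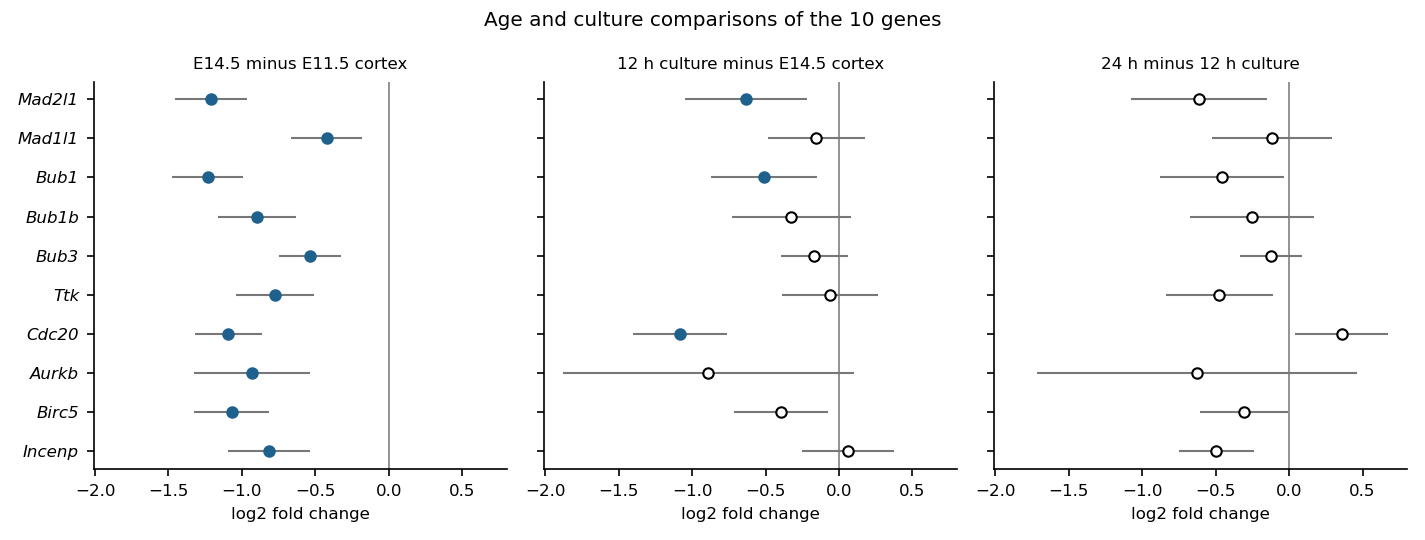
Log2 fold change of each gene between E14.5 and E11.5 cortex, between 12-hour culture and E14.5 cortex, and between 24-hour and 12-hour culture, with 95% intervals from limma. Filled blue points passed the threshold of 0.05 after adjustment. All 10 are filled for age, *Cdc20*, *Mad2l1* and *Bub1* for the first 12 hours of culture, and none for the next 12.

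Between 12 and 24 hours, 9 of the 10 genes had a negative log2 fold change and *Cdc20* a positive one, and none passed the threshold in limma, where 0.292% of all genes did. At an unadjusted p under 0.05 there were 6, where 9.64% of all genes were, edgeR called 0, and DESeq2 and limma with the replicate block each called 1, *Incenp* (adjusted p = 0.0142 and 0.0178). Of all genes, DESeq2 called 1.2% and the block 0.779%. *Incenp* had 794, 1104 and 908 in mutant and 986, 1103 and 821 in control cultures at 12 hours. At 24 hours it had 632, 736 and 769 and 519, 787 and 614, and every value lay below every value at 12 hours. Its log2 fold change was -0.50 ± 0.12 (SE) in limma (adjusted p = 0.101). *Cdc20* had 396, 385 and 463 in mutant and 285, 452 and 296 in control cultures at 24 hours, with a log2 fold change of 0.36 ± 0.15 (SE) in limma (adjusted p = 0.455). The other 8 had log2 fold changes of -0.63 ± 0.52 (SE) (*Aurkb*), -0.61 ± 0.22 (SE) (*Mad2l1*), -0.47 ± 0.17 (SE) (*Ttk*), -0.46 ± 0.20 (SE) (*Bub1*), -0.31 ± 0.14 (SE) (*Birc5*), -0.25 ± 0.20 (SE) (*Bub1b*), -0.12 ± 0.10 (SE) (*Bub3*) and -0.12 ± 0.19 (SE) (*Mad1l1*), with adjusted p of 0.335 to 0.901. Among the wider lists, *Spc25* (-0.61), *Spc24* (-0.92) and *Knl1* (-0.68) of the kinetochore fell, as did *Top2a* (-0.75), and no S phase gene or gene of the APC/C list was called.

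The genotype comparison asked whether loss of *Cep135* moved these genes. None of the 10 passed the threshold in limma at either age, after either time in culture, or across the 12 cortices with age as a term. EdgeR and DESeq2 on the reads called none of them either, and at an unadjusted p under 0.05 there were 1, 3, 1, 2 and 3 of 10, where 7.39%, 9.1%, 4.85% (650 genes), 10.6% and 8.71% of all genes tested were. Few genes of any kind were called: 0.0149% of genes tested in the E11.5 cortices, 0.0736% in the E14.5 cortices, 0% at 12 hours, 0.271% at 24 hours and 0.139% across cortices in limma. These were 2, 10, 0, 36 and 19 genes, against 1, 9, 0, 40 and 18 in edgeR and 34, 64, 9, 182 and 98 in DESeq2. Log2 fold changes were above 0 for 8 of 10 genes at E11.5 and 7 at E14.5, and for 8 and 10 of them in 12-hour and 24-hour cultures, with medians of 0.11, 0.26, 0.28 and 0.33 against 0.02, 0.01, -0.02 and -0.01 over all genes. With the *Gm42418* share as a term, 6 of 10 were above 0 at 24 hours, and with a term for embryo sex 9 were at E14.5. The 3 settings after E11.5 share embryos, so these counts are not independent of each other.

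At E11.5 the mutants lay above all controls for *Cdc20* and *Mad1l1*, a pattern that 7.16% of genes showed there. *Cdc20*, listed above at 1463 to 1569 in mutants and 1056 to 1301 in controls, had the largest change, with a log2 fold change of 0.40 ± 0.11 (SE) in limma (adjusted p = 0.566) and a 95% interval of 0.15 to 0.64. The titles of the E11.5 samples carry 2 prefixes. Under the first, mutant A had 1569 and control D 1301, and under the second, mutants B and C had 1463 to 1506 and controls E and F 1056 to 1103. The column headers of mutants B and C spell the prefix otherwise than their titles and than the headers of controls E and F. The split by prefix therefore rests on the titles. *Mad1l1* had a log2 fold change of 0.26 ± 0.15 (SE) in limma (adjusted p = 0.71). The remaining 8 lay between -0.32 (*Aurkb*) and 0.14 (*Ttk*). Microglial markers summed to 482 to 649 in E11.5 mutants and 309 to 467 in controls. The 6 markers of the ventral telencephalon summed to 936 to 1135 and 1309 to 1566. All 9 neuron markers and all 8 apical progenitor markers had negative log2 fold changes. None of the markers in these lists was called in limma or edgeR. DESeq2, which called 34 genes in all here, called *Fabp7*, *Neurod2* and *Gad2*. The *Gm42418* share was 12.3% to 16.7% in mutants and 6.11% to 12.8% in controls. Their part in the values of the 10 genes was not tested.

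*Ttk* alone had mutants above all controls at E14.5, where 7.02% of genes did. Its lowest mutant, 567, was close to its highest control, 561, and the log2 fold change was 0.52 ± 0.18 (SE) in limma (adjusted p = 0.493). With a term for embryo sex, which was inferred from *Xist* and Y-linked transcripts, it was 0.40. By these transcripts the 3 E14.5 controls were male and 2 of the 3 mutants female. The other 9 ranged from -0.12 (*Birc5*) to 0.44 (*Incenp*). No gene of the 10 had mutants above controls at both ages, as 0.813% of all genes did. Their summed level, in which the abundant genes weigh most and which was not tested, did lie higher in mutants without overlap at E11.5 (7996 to 8870 against 7346 to 7938), E14.5 (4453 to 4990 against 3956 to 4226) and 24 hours (3218 to 3326 against 2471 to 3109), and overlapped at 12 hours (3373 to 4380 against 3303 to 3725). The 17 S phase genes, summed the same way, showed this pattern too. They held 17452 to 18510 against 15628 to 16485.5 at E11.5 and 9400 to 9699 against 7057 to 7449 at E14.5. At 24 hours they held 7025 to 7657 against 4666 to 6483, and at 12 hours the groups overlapped. Sums of the kinetochore and checkpoint list overlapped in each setting, and those of the other mitotic lists in some. Among the 10 genes, the largest change across cortices was that of *Mad1l1*, 0.34 ± 0.11 (SE) in limma (adjusted p = 0.403). Neuron markers summed to 36279 to 38159 in E14.5 mutants and 44798 to 48467 in controls, and microglial markers to 841 to 1030 and 464 to 519. In limma, *Neurod6* (-0.87, adjusted p = 0.0481) and *Cx3cr1* (1.12, adjusted p = 0.0269) were called at E14.5, where 0.0736% of all genes were. Across the 12 cortices limma called *Neurod2* (-0.86, adjusted p = 0.0229) and *Cx3cr1* (0.92, adjusted p = 0.00272), where 0.139% of all genes were called. Of the neuron and microglial markers, DESeq2 called *Bcl11b*, *Neurod6*, *C1qa*, *C1qb* and *Cx3cr1* at E14.5, where it called 64 genes in all. Across cortices, where it called 98, these were *Bcl11b*, *Dcx*, *Neurod2*, *Neurod6*, *Stmn2*, *C1qa*, *C1qb*, *C1qc* and *Cx3cr1*. The part of these markers in the values of the 10 genes was not tested.

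In 12-hour cultures *Cdc20* was again the gene whose groups did not overlap, as in 5.09% of genes in that direction. The 3 mutant cultures (326 to 484) lay above the 3 control cultures (203 to 228), which held close together, and the log2 fold change was 0.83 ± 0.22 (SE) in limma (adjusted p = 0.913) with an interval of 0.36 to 1.30. When all 24 libraries shared 1 estimate of the spread, this was the single gene of the 10 past the threshold (adjusted p = 0.0438), and 0.217% of all genes were. With a term for sex the log2 fold change was 0.58. *Aurkb* had the largest value, 0.95 ± 0.83 (SE) in limma (adjusted p = 0.916), which without the culture of control 3 became -0.13. The other 8 ranged from -0.06 (*Incenp*) to 0.50 (*Mad2l1*). Intermediate progenitor markers summed to 2016 to 2247 in mutant and 1729 to 1848 in control cultures. The 8 liver markers, *Ttr* among them, summed to 5370 to 15883 and 1943 to 4891. Microglial sums were lower and endothelial sums higher in mutants without overlap, and apical progenitor, neuron and erythroid sums overlapped. The *Gm42418* share was 18.9% to 32.7% and 10.7% to 34.8%. No marker was called in limma, edgeR or DESeq2. Their part in the values of the 10 genes was not tested.

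In 24-hour cultures the mutants lay above all controls for *Mad2l1*, *Bub1b* and *Bub3*, where 7.15% of genes did. *Bub1b* had 211, 156 and 178 in mutant and 117, 131 and 91.3 in control cultures, a log2 fold change of 0.68 ± 0.21 (SE) in limma (adjusted p = 0.239). *Mad2l1* had 59.5, 77.9 and 72.5 and 46.4, 32 and 55, a log2 fold change of 0.67 ± 0.30 (SE) in limma (adjusted p = 0.45), and only 19 to 44 reads in each control. *Bub3* had 746, 682 and 679 and 654, 602 and 668, a log2 fold change of 0.13 ± 0.13 (SE) in limma (adjusted p = 0.777). The largest value was again that of *Aurkb*, 0.90 ± 0.55 (SE) in limma (adjusted p = 0.605), from 17.2, 22.3 and 27.1 in mutant and 20.5, 6.74 and 10 in control cultures, which overlap. The remaining 6 lay between 0.13 (*Birc5*) and 0.43 (*Mad1l1*).

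The 24-hour groups also differed in other ways. Mutant cultures held 7903426 to 11645213 reads on genes and control cultures 4732781 to 5709443, and the share of *Gm42418* was 20.5% to 23.0% against 6.26% to 13.9%. With the log2 share of *Gm42418* as a term, the value of *Bub1b* became 0.09 and that of *Mad2l1* 1.5, while those of *Mad1l1*, *Cdc20*, *Ttk* and *Incenp* were below 0. Since the share did not overlap between mutants and controls here, such a fit separates it poorly from genotype, and its values are loose. Apical progenitor markers summed to 12079 to 13278 in mutant and 9389 to 10593 in control cultures, and neuron markers to 35668 to 42557 and 45129 to 50486. Among these markers limma called *Neurod6* (-0.71, adjusted p = 0.0425), where 0.271% of all genes were called. DESeq2, which called 182 genes in all here, called *Vim*, *Neurod2*, *Neurod6* and *Stmn2*. The 8 liver transcripts listed summed to 5166 to 16615 and 775 to 3536, with *Alb*, *Serpina1e* and *Ttr* called in limma. This list holds *Ttr*, which choroid plexus also expresses. *Alb* itself had 27.2 to 59.4 in mutant and 0 to 1.69 in control cultures. In E14.5 mutants the sum reached 7398, with *Alb*, *Serpina1e* and *Fgb* at 0. The part of these differences in the values of the 10 genes was not tested.

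**Figure D4:**
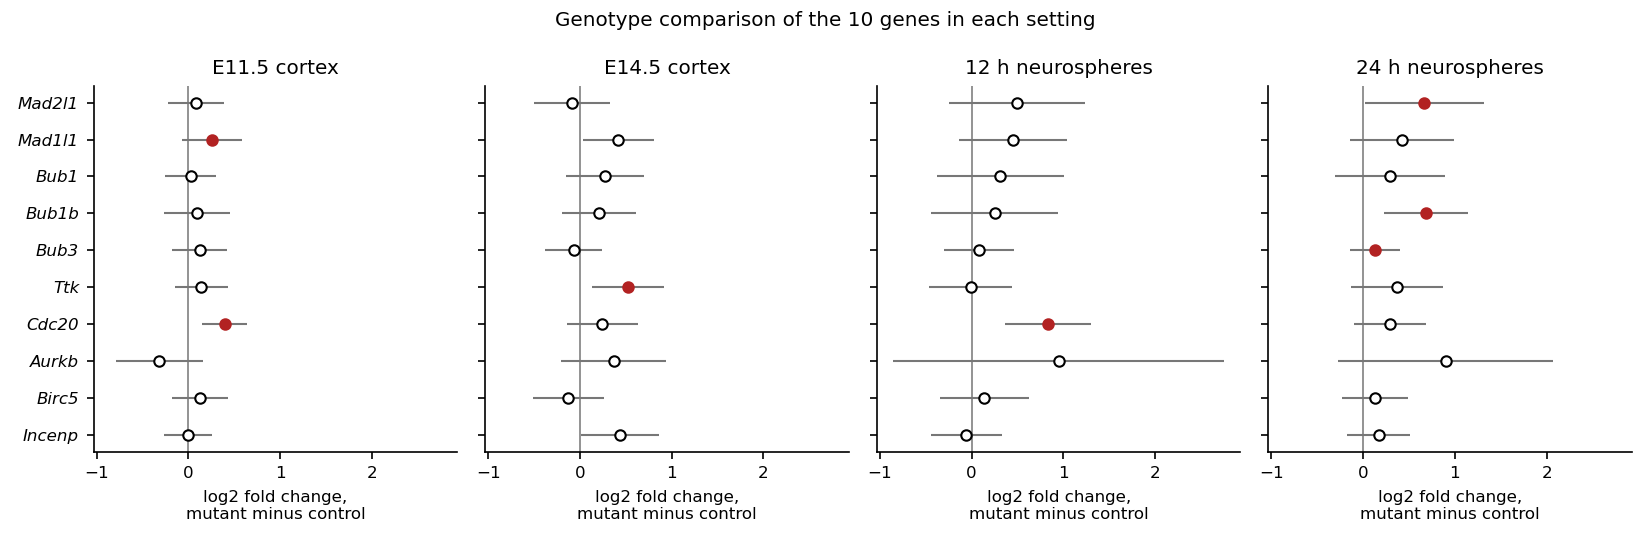
Log2 fold change of mutants against controls for each gene in the 4 settings, with 95% intervals from limma (3 libraries per group). Filled red points mark genes whose 3 mutants all lay above the 3 controls, and none passed the threshold after adjustment. *Aurkb* in culture has the widest intervals.

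The wider lists gave no call for genotype among genes of the kinetochore, centromere, APC/C, mitotic entry or S phase in any of these 5 comparisons in limma, and at an unadjusted p under 0.05 there were 4 of 19, 3 of 9, 3 of 19, 7 of 17 and 6 of 17 across the 12 cortices, where 8.71% of all genes were. EdgeR called none of them in the 5 comparisons, and DESeq2 called 2, the kinetochore gene *Spdl1* and the S phase gene *Mcm5*, both across the 12 cortices, where it called 0.718% of all genes. Their medians across the 12 cortices lay between 0.10 (APC/C and its substrates) and 0.23 (mitotic entry), near the 0.15 of the 10 genes.

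Tests of whether the genotype effect changed with age, from cortex to culture, or from 12 to 24 hours called none of the 10 in limma, edgeR or DESeq2. Limma called 0% of all genes in each of the 3 tests. At an unadjusted p under 0.05 these were 1070, 724 and 318 genes, edgeR called 0, 1 and 0, and DESeq2 called 17, 5 and 0. Of the 10 genes, *Cdc20* alone had an unadjusted p under 0.05, from cortex to 12-hour culture, where the difference of its genotype effects was 0.59 ± 0.27 (SE) in limma (adjusted p = 0.793). The intervals were wide. For *Cdc20* the difference between the ages was -0.15 with a 95% interval of -0.62 to 0.31, and for *Incenp* it was 0.44 with an interval of -0.08 to 0.96.

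Within groups, the median coefficient of variation was 9.45% for *Bub3*, 13.9% for *Cdc20*, 15.7% to 19.5% for 7 others and 27.3% for *Aurkb*, which had the fewest reads, against 17.8% over all genes that passed the filter (mean of 10 or more). Over the 24 libraries, the Pearson correlation of each gene with the mean scaled profile of the other 9 ran from 0.70 for *Mad1l1* and 0.80 for *Aurkb* to 0.95 for *Bub1* and 0.96 for *Mad2l1*. With the group means taken out it ran from -0.15 (*Ttk*) to 0.63 (*Bub1b*). The points share embryos (18 libraries come from 6), age steps and 1 size factor per library.

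Among the 13668 other genes that passed it, the profiles most like the mean profile of the 10 over the 24 libraries were those of *Zfp36l1* (r = 0.98), an RNA-binding protein gene, *Tpx2* (0.98), a spindle assembly factor, *Rrm1* (0.98), a subunit of ribonucleotide reductase, *Cenph* (0.98), a gene of the constitutive centromere network, and *Dut* (0.98), the dUTPase. These correlations are a description over points that share embryos, ages and size factors.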

How the data were processed

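RNA from 12 cortices and 12 neurosphere cultures was sequenced from the 3′ end with the QuantSeq FWD kit. Per the methods and the submitters' processing notes, the authors checked reads with FastQC (0.11.7), aligned them to GRCm38 with TopHat2 at version 2.0.10 (running on Bowtie 1.0.0, alongside SAMtools at 0.1.19), and counted reads by strand with HTSeq (0.6.1) on GENCODE genes. What the authors deposited is a signal table with replicates kept apart, in which counts were divided by a size factor for each library. Divided by the value of 1 read, each of its 484666 values above 0 came out whole (tolerance 0.001), and median-of-ratios factors recomputed from these reads equalled the deposited ones (ratio 1), also in control D, where 1 read is worth 1.01.

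Normalized read counts were tested with limma (3.58.1, R 4.3.3) with an intensity trend on log2(value + 1), for genes whose mean in the libraries of a comparison reached 10, two-sided, with Benjamini-Hochberg adjustment over all genes and a threshold of 0.05. EdgeR (4.0.16) and DESeq2 (1.42.0) were run on the recovered reads. Other alternatives were a pseudocount of 0.1 or 5, a filter at a mean of 50 or none, quantile normalization, all 24 libraries in 1 fit, a threshold of 0.1, terms for sex, title prefix or the share of *Gm42418*, the embryo as a replicate block, and leaving out each library. Embryo sex was inferred from the value of *Xist* against the sum of *Ddx3y*, *Eif2s3y*, *Kdm5d* and *Uty*. The fitting steps were run on simulated counts for some of the comparisons. These counts were drawn independently for each library, with the same dispersion for every gene and no embryo effect. They do not show how the tests fare where libraries share embryos. Libraries from separate embryos were the replicates. The number in the titles names the embryo, which pairs cortex and culture libraries, and deviations of same-numbered libraries from their group means had correlations of -0.11 to 0.24 (18 pairs, median 0.14).

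The 10 genes and the other lists were chosen with earlier results of these data known. For genotype, a fold change with its test is given for genes called, with groups that do not overlap, or with the largest change, and for age and culture for all 10. Up to 3 called genes with the smallest p are named per other list. Gene positions came from GENCODE vM21 (GRCm38), and promoter sequences from RefSeq (GRCm38.p6). Matches to other transcripts were sought by BLAST at 90% identity over 50 bases.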

Additional observations from a re-analysis of the deposited data

How the results depend on the processing

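The number of the 10 genes called stayed at 0 for genotype at E11.5, E14.5, 24 hours and across cortices, and in the 3 interaction tests, under every alternative run. For genotype at 12 hours it became 1 (*Cdc20*) with all 24 libraries in 1 fit. For age it was 9 or 10. For the first 12 hours of culture it was 1 to 4 when single libraries were left out, against 3. It was 2 with no filter on low values. It was 4 with the replicate block, all 24 libraries in 1 fit, the sex term or a threshold of 0.1. It was 1 without cortex control 3, cortex control 4 or the 12-hour culture of control 5. *Bub1* also lost its call without cortex mutants 1 or 6, cortex control 5, or the 12-hour cultures of mutant 2 or control 3 (adjusted p of 0.0501 to 0.0805 over all 8 omissions), and *Mad2l1* without the 12-hour culture of mutant 1 (0.0524). *Cdc20* kept its call in all of these. For 24 against 12 hours it became 1 (*Incenp*) with DESeq2 and with the replicate block, and the cause was not tested. The replicate block changed no other call except that of *Birc5* in the first 12 hours (adjusted p = 0.0238). Over all 10 genes and 8 comparisons, 60 of 1485 fold changes under alternatives had another sign than the value reported, none of them of a called gene: for genotype 9 in E11.5 cortices, 5 in E14.5 cortices, 12 in 12-hour and 4 in 24-hour cultures and 25 across cortices, and 5 in the first 12 hours of culture. At 24 hours all 4 came with the *Gm42418* term, and at E11.5 leaving out mutant A left 6 genes above 0, against 8. Among the 40 fold changes that the rule for named genes selects, 6 of 850 values were reversed. They were *Aurkb* for genotype at 12 hours without the culture of control 3 (-0.13, the lowest over omissions, which reached 1.62), *Ttk* in the first 12 hours of culture without cortex mutant 1 (0.021, the highest, down to -0.16), and *Incenp* in the same comparison with quantile normalization (-0.044) or without cortex control 3 (-0.014), cortex control 4 (-0.0054) or the culture of control 4 (-0.010, with omissions up to 0.15). The 95% intervals rest on 3 libraries per group, and *Aurkb* had as few as 2 reads in a culture.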
